A study of Mus musculus with 12 samples.

Results

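R-loops, in which an RNA strand pairs with its DNA template and leaves the other DNA strand single, were examined at 9 genes of the cytoskeleton. They were the beta-actin gene Actb, the gamma-actin gene Actg1, the alpha-tubulin genes Tuba1a, Tuba1b and Tuba1c, and the beta-tubulin genes Tubb5, Tubb4b, Tubb2a and Tubb6. The 9 genes were named from 21887 protein-coding genes of the RefSeq annotation by gene family, with earlier results of these data known, and no threshold on peak values was applied. A peak was counted at a gene when it overlapped the gene body with 1 kb on both sides. Every gene of the set held at least 1 peak in each of the 2 deposited peak lists.

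The series mapped hybrids with the S9.6 antibody, which binds RNA-DNA hybrids, in HEPA1-6, a mouse hepatoma cell line, and in liver of C57/Bl6 mice. Both sources were labelled as wild-type and untreated hepatocytes, and the age of the mice was not given in the labels. The 12 libraries formed 6 groups of 2: immunoprecipitate, immunoprecipitate with RNase H1, which destroys the RNA of hybrids, and input DNA, for each source. The values here come from 1 list per source, named as a merged immunoprecipitate against an input, with 28717 peaks for HEPA1-6 and 14908 for liver. There was thus no spread between replicates, no test between the sources was possible, and single libraries and RNase H1 libraries were not analysed here. The depth is unknown. Of 10 hepatocyte markers, Alb, Apoa2 and Trf held a peak in both lists and the other 7, among them Apoa1, Ttr and Cps1, in neither. Of 10 markers of other liver cells, 1 (Dcn) held a peak, in both lists. The 2 marker sets thus stood at 30.0% and 10.0% in each list. The background share, over every protein-coding gene, was 42.0% for HEPA1-6 and 29.7% for liver. Which cell types the sources held was not tested. The second list is called the liver list after its label.

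Actin filaments and microtubules are polymers that give a cell its shape, carry its transport and, in the case of microtubules, separate its chromosomes. Actb and Actg1 encode the cytoplasmic actins of nearly all cells, while most other actin genes serve muscle. Alpha- and beta-tubulin form the dimer from which microtubules are built, and their messages are degraded when free tubulin is plentiful. Actin genes are targets of serum response factor, whose coactivators sense free actin. S9.6 signal is often strong at short, highly transcribed genes, and Actb is a usual positive locus in such experiments.

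Promoter sequences showed how the genes differ at their starts. They came from RefSeq (GRCm38.p6), which held entries for 7 of the 9 genes; entries for Actb and the ninth gene, Tubb6, were not used here. Of each, the 250 bases before the annotated start are shown, 5′ to 3′ on the strand of the gene. Actg1 is shown for its serum response element, Tuba1c because a liver peak starts inside it, Tubb2a because its promoter was under a peak in HEPA1-6 and almost uncovered in the liver list, and Tubb5 because its promoter was uncovered in both. Capitals mark the serum response element (CArG box) in Actg1 (chromosome 11, 120348496 to 120348745, minus strand), the sequence TCTAGA in Tuba1c (chromosome 15, 99029641 to 99029890, plus strand), TATAA in Tubb2a (chromosome 13, 34078009 to 34078258, minus strand) and CCAAT in Tubb5 (chromosome 17, 35838302 to 35838551, minus strand).
Actg1: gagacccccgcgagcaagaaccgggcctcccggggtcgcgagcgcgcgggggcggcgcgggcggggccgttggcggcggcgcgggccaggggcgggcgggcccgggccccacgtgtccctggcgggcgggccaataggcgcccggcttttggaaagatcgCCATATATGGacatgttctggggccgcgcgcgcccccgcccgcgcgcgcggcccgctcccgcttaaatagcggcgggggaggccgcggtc
Tuba1c: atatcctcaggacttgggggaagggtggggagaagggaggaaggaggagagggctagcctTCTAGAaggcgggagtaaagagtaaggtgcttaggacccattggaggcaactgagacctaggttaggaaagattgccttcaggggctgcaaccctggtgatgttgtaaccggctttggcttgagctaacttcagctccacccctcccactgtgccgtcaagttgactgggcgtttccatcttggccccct
Tubb2a: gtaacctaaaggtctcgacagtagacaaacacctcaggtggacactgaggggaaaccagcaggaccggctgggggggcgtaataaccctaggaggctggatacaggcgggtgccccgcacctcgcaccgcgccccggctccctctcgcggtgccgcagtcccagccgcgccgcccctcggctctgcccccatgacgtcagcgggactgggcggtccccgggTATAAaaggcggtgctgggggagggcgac
Tubb5: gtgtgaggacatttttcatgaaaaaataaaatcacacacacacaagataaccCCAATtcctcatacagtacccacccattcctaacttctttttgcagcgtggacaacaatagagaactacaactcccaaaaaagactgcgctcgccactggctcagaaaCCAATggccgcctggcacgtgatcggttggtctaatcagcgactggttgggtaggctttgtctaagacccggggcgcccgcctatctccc

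The CArG box of Actg1 began 90 bases before the start, and no other of the 7 promoters held one. Among 21263 promoter windows of protein-coding genes, 1.39% held this element in these 250 bases. The TATAA of Tubb2a began 29 bases before the start, and Tuba1a also held this sequence. TATAA on either strand was present in 20.3% of all promoters. GGGCGG, the GC box, was present on either strand in 5 of the 7 promoters (all but Tuba1c and Tubb5) and in 42.6% of all promoters. CCAAT, on either strand, was also present in 5 of 7 (all but Tuba1b and Tubb2a), against 35.4% of all. These matches describe the letters in the window and were not tested for binding.

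Base composition varied widely among the 7 windows, which also take in the first 50 bases of the transcript. The GC content was 77.3% at Actg1, above 97.1% of all promoters, and 72.7% at Tuba1b, above 92.0%. Tubb2a had 67.0%, Tuba1a 59.0%, Tuba1c 58.0%, Tubb5 55.0% and Tubb4b 53.7%, with a median of 56.3% over all promoters. The number of CpG dinucleotides ranged from 7 at Tuba1c to 50 at Actg1, around a median of 13 in all promoters. GC skew, the excess of G over C divided by their sum, is known to favour R-loops when it is positive past a start. In the first 50 bases it was 0.44 at Tubb4b and below 0 at the other 6 genes, between -0.49 (Tuba1a) and -0.20 (Tuba1c and Tubb2a), with a median of 0.08 over all promoters. Skew further into the genes was not analysed here.

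Both actin genes lay under a single wide peak in each list. Actb (chromosome 5, 142903115 to 142907976) held a HEPA1-6 peak of 10043 bp (142896958 to 142907000) with an authors' score of 513 and a liver peak of 9369 bp (142897632 to 142907000) with a score of 281. The score is a whole number of 10 or more on an unstated scale and is compared here only within a list. These scores ranked 50 of 28717 peaks in HEPA1-6 and 83 of 14908 in the liver list. Both Actb peaks ended at the same base and covered 79.9% of the gene, leaving 976 bp at its upper boundary uncovered. No strand of Actb was read here, so the boundaries are named by coordinate only. On the other side they ran 6157 and 5483 bp past the lower boundary, over the lncRNA gene Gm38733, and both had the minus strand while Gm38733 is annotated on the plus strand.

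Actg1 (chromosome 11, 120345687 to 120348495, minus strand) was covered to 100% in both lists. Its HEPA1-6 peak (120342833 to 120351690, 8858 bp) scored 198, rank 194, and its liver peak (120342988 to 120349460, 6473 bp) scored 102, rank 295. Both carried the annotated minus strand. Upstream of the Actg1 start, the HEPA1-6 peak went on for 3195 bp over the lncRNA gene 0610009L18Rik, annotated on the plus strand, and the liver peak for 965 bp. Past the 3′ boundary the lengths were 2854 and 2699 bp. The 2 actin genes thus had the highest scores of the 9 genes in each list.

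**Figure D1:**
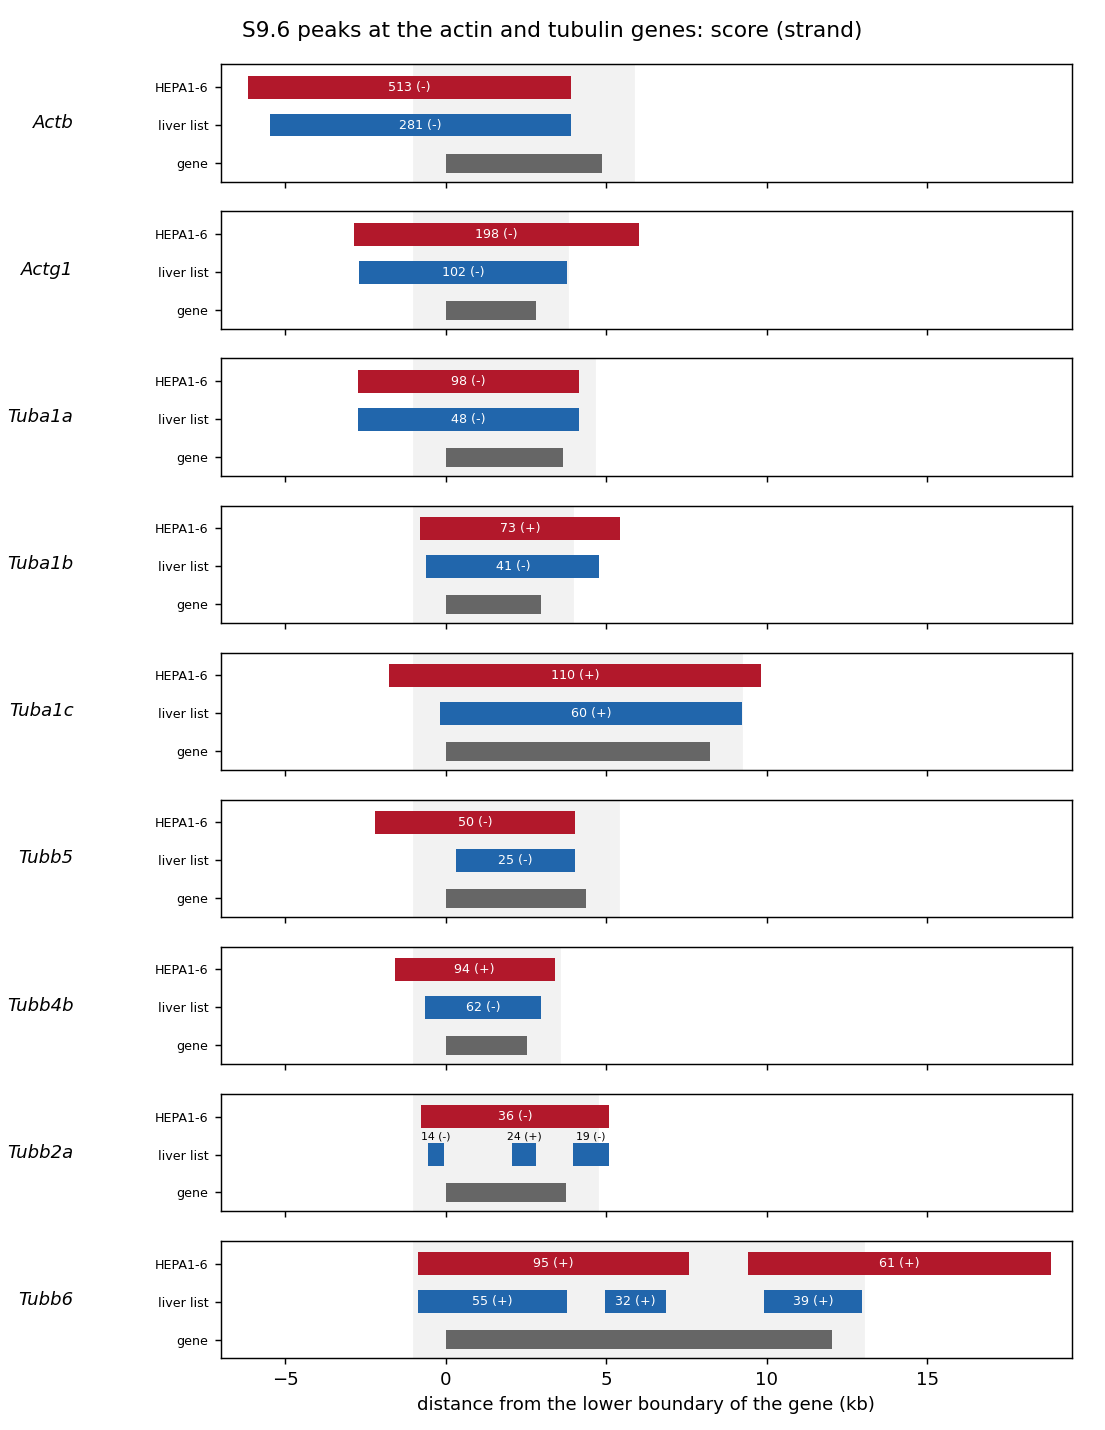
Peaks at each gene (red, HEPA1-6; blue, liver list; grey bar, gene body; light band, gene body with 1 kb on both sides), against the distance in kb from the lower boundary of the gene; labels give the authors' score and strand. Single wide peaks cover Actb to Tubb4b in both lists, while the liver list holds 3 separate peaks at Tubb2a and at Tubb6.

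The alpha-tubulin genes, which encode nearly identical proteins, lie on chromosome 15, Tuba1a and Tuba1b on the minus strand and Tuba1c on the plus strand. Each was covered to 100% by 1 peak in each list. At Tuba1a (98949847 to 98953501) the same interval, 98947100 to 98953994 (6895 bp), was listed for both sources, with scores of 98 (rank 742) and 48 (rank 1383). At Tuba1b (98931429 to 98934390) a HEPA1-6 peak of 6228 bp (98930641 to 98936868) scored 73 and a liver peak of 5398 bp (98930819 to 98936216) scored 41. At Tuba1c (99029891 to 99038105) a HEPA1-6 peak of 11590 bp (99028120 to 99039709), the widest at the 9 genes, scored 110, and a liver peak of 9425 bp (99029702 to 99039126) scored 60. All 3 genes scored below Actg1 in each list.

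Tuba1c and Tuba1b differed from Tuba1a in their edges. A separate liver peak of 313 bp with a score of 25 (99028120 to 99028432) lay 1459 bp before Tuba1c, just outside the window of the rule, and started at the same base as the HEPA1-6 peak. The liver peak over the Tuba1c gene began 1 base into the TCTAGA shown above, so that 79.7% of the promoter window was covered, against 100% in HEPA1-6. At Tuba1b the HEPA1-6 peak had the plus strand, opposite to the gene, and the liver peak the minus strand. Tuba1b lies within Gm41396, an lncRNA gene annotated on the plus strand, which both peaks also overlapped.

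Among the beta-tubulin genes, Tubb4b was covered most completely. Tubb4b (chromosome 2, 25222158 to 25224702, minus strand) lay wholly under a HEPA1-6 peak of 4977 bp (25220568 to 25225544, score 94, rank 794) and a liver peak of 3619 bp (25221520 to 25225138, score 62, rank 780). The HEPA1-6 peak had the plus strand and the liver peak the minus strand. Both also overlapped Fam166a, a neighbour on the plus strand whose annotated body ends inside Tubb4b. Tubb5 (chromosome 17, 35833920 to 35838301, minus strand), the main beta-tubulin of dividing cells, held a HEPA1-6 peak of 6237 bp (35831719 to 35837955, score 50, rank 2655) and a liver peak of 3715 bp (35834241 to 35837955, score 25, rank 5575). Both ended at the same base, 346 bp short of the start of the gene, so that its promoter lay outside any peak in either list. The body was covered to 92.1% and 84.8%. The HEPA1-6 peak also overlapped the protein-coding gene Flot1. A further liver peak (35831982 to 35832849, score 32) lay 1071 bp past the 3′ boundary, just outside the window, within the span of the HEPA1-6 peak.

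Tubb2a showed the largest difference between the lists in the share of the gene covered. In HEPA1-6, Tubb2a (chromosome 13, 34074278 to 34078008, minus strand) lay wholly under 1 peak of 5839 bp (34073517 to 34079355, score 36, rank 5127). The liver list had 3 narrow peaks there, of 496 bp (34073729 to 34074224, score 14, minus), 735 bp (34076349 to 34077083, score 24, plus) and 1103 bp (34078253 to 34079355, score 19, minus). Only the middle one touched the gene body, of which it covered 19.7%. The HEPA1-6 peak and the first liver peak also overlapped Bphl, a protein-coding gene annotated on the plus strand. All 3 lay inside the span of the HEPA1-6 peak, and the last ended at the same base. They left 2124 and 1169 bp between them, and the promoter window of Tubb2a, covered to 100% in HEPA1-6, was covered to 2.00%. In the higher-scoring 50% of the liver list only the middle peak remained, and the covered share of Tubb2a with 1 kb on both sides fell from 34.7% to 12.8%.

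Tubb6 is the longest gene of the set, with 12019 bp (chromosome 18, 67390731 to 67402749). HEPA1-6 had 2 plus-strand peaks there, of 8445 bp (67389858 to 67398302, score 95) and 9454 bp (67400130 to 67409583, score 61), which together covered 84.8% of the body. The second ran 6834 bp past the upper boundary and overlapped the neighbouring gene Afg3l2. The liver list had 3 plus-strand peaks, with scores of 55, 32 and 39, which covered 64.8%. The first of these (67389858 to 67394516) started at the same base as the first HEPA1-6 peak.

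Read against all genes, a peak in each list at 9 of 9 genes compares with 42.0% of 21887 protein-coding genes in HEPA1-6 (95% Wilson interval 41.3 to 42.6%) and 29.7% in the liver list (29.1 to 30.3%). Wilson intervals here cover counting error only. Among 5887 genes of the same range of lengths (2545 to 12019 bp), 41.9% and 29.8% held a peak. The 9 genes were picked with earlier results of these data known and are no random sample, so no test was made.

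The gene bodies were also largely covered. Peaks lay over 93.0% of the 45180 body bases of the 9 genes in HEPA1-6 and over 80.4% in the liver list. In genes of the same range of lengths that held a peak, the corresponding shares were 44.9% and 30.3%. At least 80% of the body was covered at 8 of 9 genes in HEPA1-6 and at 6 of 9 in the liver list, with Actb just below this level at 79.9% in both. Among all genes with a peak, 10.5% in HEPA1-6 and 5.30% in the liver list reached 80%. Among those of the same range of lengths, 24.3% and 11.6% did. The median body coverage of the 9 genes was 100% in both lists, against 44.6% and 24.0% in genes of that range with a peak. Tubb2a in the liver list, at 19.7%, was below that median.

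**Figure D2:**
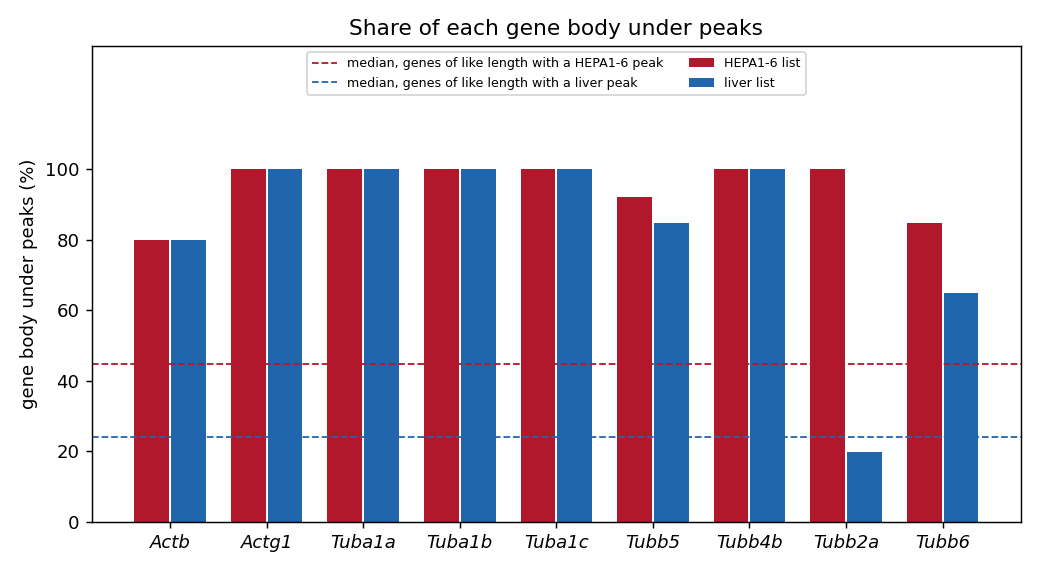
Share of each gene body under peaks (%), for HEPA1-6 (red bars) and the liver list (blue bars), with the median of genes of 2545 to 12019 bp that held a peak in the same list (dashed lines, 44.6% and 24.0%). Every bar but that of Tubb2a in the liver list, at 19.7%, stands above its dashed line.

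The order of the genes by top score was similar in the lists. In HEPA1-6 it ran Actb 513, Actg1 198, Tuba1c 110, Tuba1a 98, Tubb6 95, Tubb4b 94, Tuba1b 73, Tubb5 50 and Tubb2a 36. In the liver list it ran Actb 281, Actg1 102, Tubb4b 62, Tuba1c 60, Tubb6 55, Tuba1a 48, Tuba1b 41, Tubb5 25 and Tubb2a 24. With no replicate lists, it cannot be said which neighbours in these orders differ. Spearman's rho between the lists was 0.88 over the 9 genes and 0.70 over 6077 protein-coding genes with a peak in both lists. These are descriptions across genes, which share the libraries and the peak calling.

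Scores were high for genes with a peak, apart from Tubb5 and Tubb2a. The median top score was 95 for the 9 genes and 34 for the 9191 genes with a HEPA1-6 peak. In the liver list it was 55 for the 9 genes and 28 for 6491. All 9 genes were above the median of their list in HEPA1-6 and 7 in the liver list. Actb exceeded 99.7% and 99.6% of genes with a peak, and Actg1 98.2% and 96.6%. Tubb5 exceeded 70.5% and 38.9%, and Tubb2a 51.6% and 36.1%. The other 5 genes exceeded between 85.0% (Tuba1b) and 92.9% (Tuba1c) in HEPA1-6, and between 73.7% (Tuba1b) and 89.5% (Tubb4b) in the liver list.

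**Figure D3:**
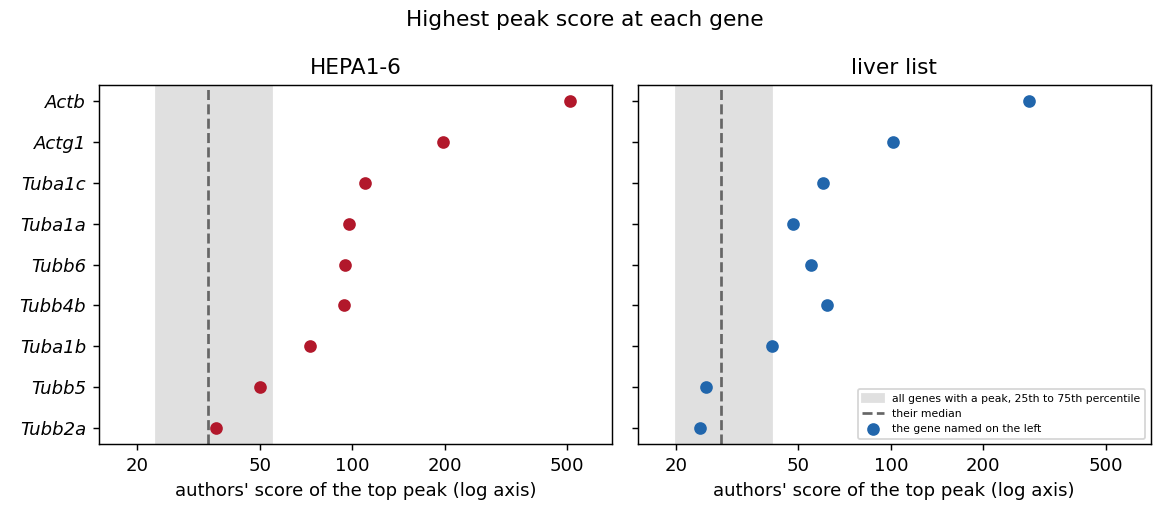
Authors' score of the top peak at each gene (log axis, no unit), HEPA1-6 on the left and the liver list on the right, with the median (dashed line) and the 25th to 75th percentile (grey band) of all protein-coding genes with a peak. Actb and Actg1 lead both panels, and Tubb5 and Tubb2a lie at the lower end, below the median of 28 in the liver list.

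Most peaks at these genes were also wide for their list. The 10 HEPA1-6 peaks measured 4977 to 11590 bp, with a median of 7670 bp against 1091 bp for the list, and each was wider than at least 91.3% of the list. The 13 liver peaks measured 496 to 9425 bp, with a median of 3715 bp against 881 bp. The first and middle peaks at Tubb2a, of 496 and 735 bp, were narrower than that median of the list. The list medians include peaks outside genes, and the widths of peaks at other genes were not compared. Of the peak bases, 46.5% in HEPA1-6 and 36.1% in the liver list lay outside the 9 gene bodies. Peak bases reached beyond the 3′ boundary at 7 of 7 genes with an annotated strand in HEPA1-6, by 761 bp (Tubb2a) to 2854 bp (Actg1). In the liver list peak bases lay past it at 6 of 7, with the far edge 549 bp (Tubb2a) to 2747 bp (Tuba1a) away. Beyond the 5′ boundary peak bases lay at 6 of 7 genes in each list, the exception being Tubb5. In the liver list Tubb2a counts on both sides only through its separate first and last peaks, which lay outside its body. The shares over all genes were counted the same way. Among 7416 protein-coding genes with a HEPA1-6 peak and an annotated strand, 45.4% had peak bases past the 3′ boundary and 48.0% past the 5′ boundary. Among 5209 such genes of the liver list, 30.2% and 45.8% did. In genes of the same range of lengths these shares were 60.7% and 56.2% in HEPA1-6, and 44.7% and 55.2% in the liver list.

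Promoter windows, from 250 bases before to 50 after the start, were wholly under peaks at 6 of the 7 genes in HEPA1-6 and at 4 in the liver list (Tubb4b, Actg1, Tuba1b and Tuba1a). Over 21263 windows of protein-coding genes the shares were 16.2% and 9.33%. The Tubb5 window, at 0% in both lists, and the Tubb2a window in the liver list were thus unlike the other windows of the set, while the bodies of both genes held peaks.

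Where the liver list had peak bases at these genes, HEPA1-6 had them too. Within the windows of the rule, 100% of the liver bases lay under HEPA1-6 peaks at each of the 9 genes, a value that was also the median over the 6077 genes with a peak in both lists. In the other direction the share of HEPA1-6 bases under liver peaks ran from 36.2% at Tubb2a to 100% at Actb and Tuba1a. The Jaccard index, the bases held in common divided by those under a peak of any source, was 1.00 at Actb and Tuba1a, 0.993 at Actg1, 0.963 at Tuba1b, 0.921 at Tuba1c, 0.825 at Tubb4b, 0.797 at Tubb6, 0.738 at Tubb5 and 0.362 at Tubb2a. Its median was 0.921, against 0.342 over the 6077 genes (25th to 75th percentile 0.169 to 0.595). Those genes are of all lengths, and a window wholly covered in both lists has an index of 1.00 by construction. The HEPA1-6 list is the longer one, and the thresholds behind both lists are not given in the sources used here.

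Every peak at the 9 genes had a strand. At the 7 genes with an annotated strand, 5 of 7 HEPA1-6 peaks and 8 of 9 liver peaks lay on it. Among peaks over 1 protein-coding gene and no other gene, 93.9% in HEPA1-6 and 91.8% in the liver list did. The counts at the 7 genes are of a wider kind. They include peaks that also overlap other genes, and the first and last liver peaks at Tubb2a, which lay outside its body. The 3 peaks on the other strand were the HEPA1-6 peaks at Tuba1b and Tubb4b, each also over a gene annotated on the plus strand, and the middle liver peak at Tubb2a, which overlapped no other gene. The liver peaks at Tuba1b and Tubb4b, over the same neighbours, had the minus strand. So had both Actg1 peaks and the HEPA1-6 and first liver peaks at Tubb2a, also over genes annotated on the plus strand. A part of neighbours in the strand was not tested. How the authors gave a strand to a peak is not stated in the sources used here.

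Shared edges were common in the lists. Of 13 overlapping pairs of peaks at the 9 genes, 5 had the same start or the same end to the base, at Actb, Tuba1a, Tubb5, Tubb2a and Tubb6. Over 11430 overlapping pairs on the assembled chromosomes, 46.2% did. The labels cite a published S9.6 protocol, and in that method DNA is cut with a mix of restriction enzymes before the immunoprecipitation; the enzymes used here are not named in the labels. Sites of 5 enzymes often used for it, HindIII (AAGCTT), EcoRI (GAATTC), BsrGI (TGTACA), XbaI (TCTAGA) and SspI (AATATT), were therefore sought at peak edges that fell in a promoter window of any gene. Each site reads the same on both strands. The enzymes were chosen after the shared edges had been seen.

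Of 859 HEPA1-6 edges in such windows, 53.9% (50.6 to 57.2%) had a site lying wholly within the 6 bases on either side of the edge, and of 795 liver edges 42.9% (39.5 to 46.4%) did. Only 0.805% of all positions in the windows meet this rule. At sites of 5 other enzymes (BamHI, PstI, KpnI, NcoI and SacI) lay between 0.694% of HEPA1-6 starts and 2.19% of liver ends, against 1.24% of all positions. At the 9 genes, 2 edges fell in a promoter window: the start of the liver peak over Tuba1c, at an XbaI site, and the start of the last liver peak at Tubb2a, at none of the 5 sites. Edges elsewhere at the 9 genes could not be read, as no genome sequence was used. The part of such sites in the widths and covered shares at these genes was not tested.

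**Figure D4:**
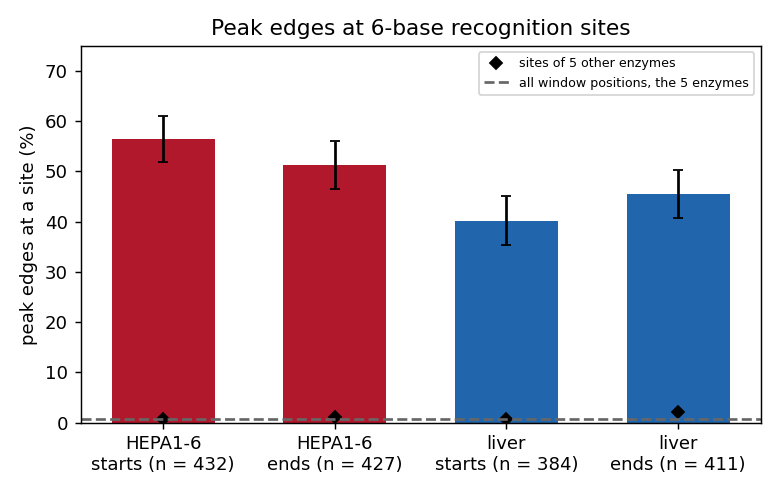
Share of peak edges within promoter windows with a 6-base site within 6 bases on either side, for HindIII, EcoRI, BsrGI, XbaI or SspI (%), by list and by start or end of the peak, with 95% Wilson intervals (error bars), the share at sites of 5 other enzymes (diamonds) and the share of all window positions at the 5 sites (dashed line, 0.805%). The bars stand between 40.1% and 56.5%.

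The peaks of the set were then set beside the other genes of both families. None of the 5 other actin genes (Acta1, Acta2, Actc1, Actg2 and Actbl2) held a peak in either list, against 42.0% and 29.7% of all protein-coding genes. All of them but Actbl2 serve mainly muscle. Of 13 other tubulin genes, 5 (38.5%) were marked in HEPA1-6 and 2 (15.4%) in the liver list. The 2 with a peak in both lists were Tuba4a, covered to 81.2% in each (scores 72 and 38), and Tubg2, a gamma-tubulin of the centrosome, covered to 47.8% in each (40 and 32). Tubg1, Tubd1 and Tuba8 held a peak in HEPA1-6 only, with top scores of 17, 26 and 15. Tubb2b, Tubb3 and Tubb4a, isotypes known from neurons, held none, nor did Tubb1, known from platelets.

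Proteins that act on actin held peaks at most of their genes. Of 17 genes of actin-related proteins and the Arp2/3 complex, which starts branched filaments, 14 held a peak in each list. Actr3 (scores 337 and 153) and Arpc1b (178 and 88) were highest. Of 21 actin-binding genes, 19 were marked in HEPA1-6 and 16 in the liver list. Tmsb10, a thymosin that holds actin monomers, scored 189 and 64 and was covered to 100%, as was Myl6, a myosin light chain (182 and 129). Cfl1, the cofilin that severs filaments, scored 182 and 79. In the liver list the tropomyosin gene Tpm4, at 90, came second to Myl6. Neither list had a peak at Gsn or Tmsb4x. Srf and its coactivator genes Mrtfa and Mrtfb, 3 of 3, held a peak in both lists, with top scores of 77 and 52 at Srf and of 33 and 23 at Mrtfa. Mrtfa and Mrtfb are long, at 178456 and 161474 bp, and their bodies were covered to at most 4.45%.

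Genes that fold actin and tubulin followed, with 18 of 22 in HEPA1-6 and 13 in the liver list. All 8 subunit genes of the CCT chaperonin (Tcp1 and Cct2 to Cct8 in the list) held a peak in both. Cct5 (113 and 61, covered to 100% in both) had the highest score of the folding genes in each list. Cct7 (99 and 40) came next in HEPA1-6, while in the liver list Vbp1 (44) and Tbcb (41), of prefoldin and the tubulin cofactors, scored above it. Ttc5, whose product starts the decay of tubulin messages, held none. Of 12 genes for proteins that bind microtubules or modify tubulin, 9 and 8 held a peak, led by the kinesin gene Kif5b (100 and 58) and Mapre1 (81 and 50), whose product tracks growing ends. Over all 93 genes of these lists, 68 (73.1%) held a HEPA1-6 peak, 56 (60.2%) a liver peak, and 0 a peak in the liver list alone. All protein-coding genes stood at 42.0% and 29.7%, and the share among genes as long as these 93 was not analysed. The median body coverage of the 93 genes, those without a peak included, was 12.6% and 1.64%, against 100% in both lists for the 9 genes. Coverage was not compared at like length or among genes with a peak only. The median lengths were 17116 bp for the 93 genes and 3731 bp for the 9.

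**Figure D5:**
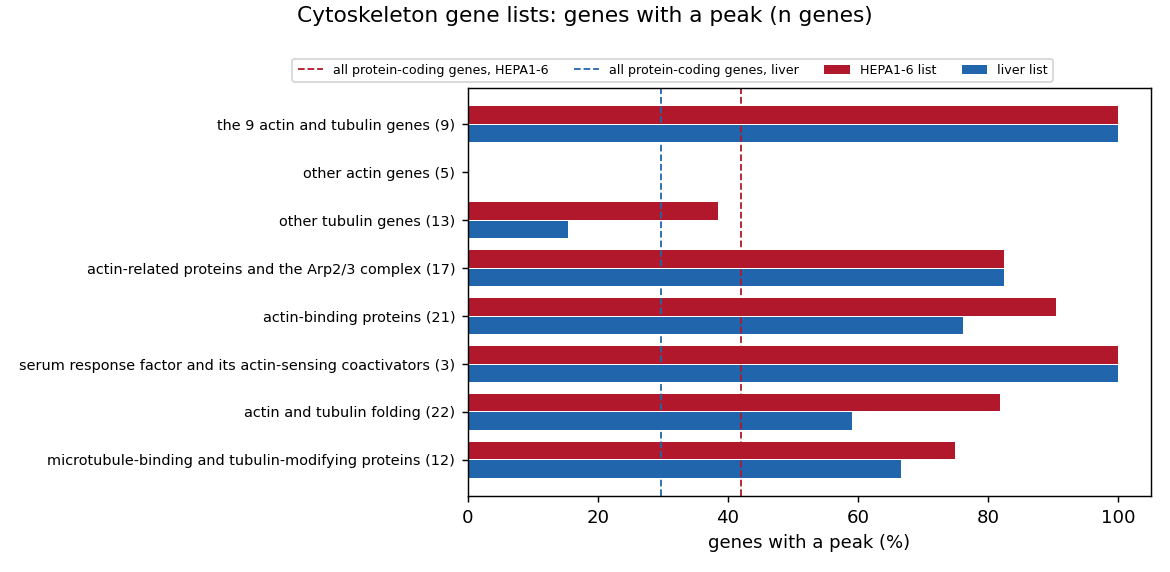
Share of genes with a peak (%), by list of genes (number of genes in parentheses), in HEPA1-6 (red bars) and the liver list (blue bars), with the shares of all protein-coding genes as dashed lines (42.0% and 29.7%). The other actin genes stand at 0 in both lists. The other tubulin genes (38.5% and 15.4% of 13 genes) are the only further group below both lines, and in HEPA1-6 they lie close to the line.

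By pattern, genes were compared on body coverage and on the percentile of the top score within each list, 4 values in all, leaving out genes within 10 kb. Nearest to Actg1 were Tssc4, Zyx and Jund, each covered to 100% in both lists, with top scores of 194 and 103 at Tssc4. Zyx encodes zyxin, a protein of focal adhesions. Nearest to Actb were Trim56, Rps16 and Mcl1, although at a larger distance (2.89 for Trim56 against 0.0556 for Tssc4, in percentage points). The nearest genes of Tubb6 (3.20 for Ufc1), Tubb5 (4.39 for Hyal1) and Tubb2a (6.13 for Fam32a) lay further away still. Nearest to Tuba1c were Zfp36l1, Cct5 and Pfn1, the last encoding profilin, which binds actin monomers. Tuba1a lay nearest to H2ac21, H2ac20 and Coro1b, and Tuba1b to A930033H14Rik, Ctxn1 and H2ac15. Tubb4b lay nearest to Spsb2, the glycolysis gene Tpi1 and Tuba1c. Spsb2 and Tpi1 had the same 4 values as each other, as had H2ac21 and H2ac20. Whether the genes of such a pair share their peaks was not analysed. Between genes covered to 100% in both lists, the distance rests on the score percentiles alone. For Tubb2a the nearest genes were Fam32a, Etv4 and Cd2bp2, each with 100% coverage in HEPA1-6 and 16.7 to 19.3% in the liver list. Tubb5 was nearest to Hyal1, D17H6S56E-5 and Fam174c, and Tubb6 to Ufc1, Lsr and Fam222a.

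Near-identical copies of a gene can share reads, and how such reads were treated is not stated in the sources used here. Of 9 pseudogenes that the annotation names after actin or tubulin genes, Tubb4b-ps1 held a HEPA1-6 peak and none held a liver peak. Further copies with other names were not analysed here. Values at Tuba1a, Tuba1b and Tuba1c, and at Actb and Actg1, are uncertain to the extent that their reads could not be told apart.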

How the data were processed

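Genomic DNA of HEPA1-6 cells and mouse liver was immunoprecipitated with S9.6 and sequenced, per the labels' protocols. The submitters' processing notes name CASAVA 1.8.2, cutadapt, Bowtie2, bedtools, SAMtools, MACS2 and the build mm10 (GRCm38), with no role or settings. Per the deposited peak names, each list sets a merged immunoprecipitate against an input. The score deposited by the authors, a whole number of at least 10, was ranked within its list only. Merged lists hide the spread between libraries, and the caller's thresholds are not given in the sources used here.

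Peak starts were turned to 1-based and laid over 21887 protein-coding RefSeq genes (GRCm38.p6) with 1 kb on both sides, with a minimum overlap of 1 bp (Python 3.11.15, pandas 2.3.3, numpy 2.4.6). Gene strands came from the RefSeq promoter table. Shares carry 95% Wilson intervals. Interval functions were tested on 3000 simulated windows, of which 3000 were recovered. Genes and lists were chosen with earlier results of these data known; the enzyme sites, the 80% level and CCAAT were added with the peaks in view. By rule, the text names all 9 genes and, from the other lists, genes with a peak in the liver list only, the 2 of each list with the highest score in any peak list (ties included) and the 3 nearest in pattern to each of the 9. Others, such as genes without a peak, with a HEPA1-6 peak only, of the CCT, or high in the liver list only, were picked with their values known.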

Additional observations from a re-analysis of the deposited data

How the results depend on the processing

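The 9 genes all kept a peak in both lists with no flank, with 2 kb, in the higher-scoring 50% of each list, with equal numbers of peaks and with 50% of the peak or window required. All but the last of these outcomes were fixed by values given above. A wider flank can only add peaks, and every gene body held peak bases. The lowest top scores, 36 and 24, lie above the medians of the lists, 21 and 22. Equal numbers shorten only the HEPA1-6 list, to 14908 peaks, and the lowest rank there was 5127. With the midpoint of the peak, 8 kept one in HEPA1-6, as the midpoint of the Actb peak lies outside the window. Overlap of 50% of both peaks left 8 of 9 genes shared, without Tubb2a. By the strand of most bases, 7 rather than 6 of 7 genes lay on their annotated strand in the liver list. The background shares moved beyond their intervals: for HEPA1-6 and liver they were 40.2% and 27.6% with no flank, 43.3% and 30.8% with 2 kb, 33.5% and 20.8% in the higher-scoring 50%, 39.9% and 28.3% with 50% of the peak or window, 39.3% and 28.1% by midpoint, and 34.0% (HEPA1-6) with equal numbers. Coverage of the windows with 1 kb on both sides had a median of 95.7% in HEPA1-6 and 79.6% in the liver list, and by construction changed with the flank, to 100% and 100% with none and to 80.3% and 66.4% with 2 kb. In the higher-scoring 50% of the liver list the peaks at the 9 genes went from 13 to 11, and the covered share of the Tubb2a window from 34.7% to 12.8%. The highest scores cannot change by construction when a list is shortened by score. No paired analysis was possible because the lists are merged over libraries, and leaving out a replicate was not possible for the same reason.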
